A study of Homo sapiens with 6 samples.

Results

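The genes described here encode the machinery that carries nuclear-encoded proteins into mitochondria and folds, trims or degrades them inside. They were taken from the deposited table by symbol: every row whose name begins with TOMM or TIMM and a digit, pseudogenes and antisense rows left out, plus HSPD1, HSPE1, HSPA9, TRAP1, GRPEL1, DNAJA3, PMPCA, PMPCB, SAMM50, LONP1 and CLPP. The rule found 38 of 31853 genes. It used no measured value, but the members were chosen with earlier results of these data known. It also takes in TIMM23B-AGAP6, a readthrough transcript, and TOMM20L-DT, a divergent transcript, which are not translocase genes. Counts of members below include them unless stated otherwise.

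Libraries of poly(A) RNA were made from Mon-Mac-6, an established human monocytic leukaemia line. One group received 500 nM WD6305 for 48 h and the other received DMSO, the solvent, for the same time. The title of the series names WD6305 as a PROTAC, a degrader molecule, against METTL3, the methyltransferase that writes N6-methyladenosine on messenger RNA. Each group has 3 libraries of the same line, the labels give no genotype change in either, and nothing in them says whether the libraries come from separate cultures, so the p-values measure the spread between these libraries, which may be technical.

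Most mitochondrial proteins are made in the cytosol as precursors. They enter through the TOM complex of the outer membrane and are then sorted: barrel proteins to the SAM complex, carriers through small TIM chaperones to the TIM22 complex, and precursors with a cleavable presequence through the TIM23 complex into the matrix. There an Hsp70 motor pulls them in, a peptidase removes the presequence, chaperonins and an Hsp90 fold them, and AAA+ proteases clear what fails.

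Deposited counts summed to between 64525948 and 69726451 in the WD6305 libraries and between 66525685 and 71155346 in the DMSO libraries. Of 12 monocytic markers all were in the table: LYZ (lysozyme) had 10044 ± 773 CPM under WD6305 and 5507 ± 250 CPM with DMSO (CPM, counts scaled to library size, SD, n = 3 each). In the edgeR fit 7 of these 12 rose and 2 fell, with a median log2 fold change of 0.23. Of all tested genes 12.2% rose and 11.2% fell. ELANE, CSF1R and ITGAM rose by 0.90, 1.41 and 0.84, beside 0.87 for LYZ, and MPO and CD14 fell by 0.35 and 0.37. Identity markers thus moved with treatment, and their part in the import genes' values was not tested. CD14 was low, at 13.6 ± 1.01 CPM under WD6305 and 17.6 ± 0.29 CPM with DMSO, and CD4 was near 0, at 0.226 ± 0.058 CPM under WD6305 and 0.419 ± 0.158 CPM with DMSO. Of 10 lymphoid and erythroid markers 4 were in the table, and their summed level was 1.95 to 3.47 CPM under WD6305 and 3.39 to 3.97 CPM with DMSO. The 12 epithelial and fibroblast markers summed to 62.4, 116 and 119 CPM in WD6305 libraries 1, 2 and 3 and to 148, 136 and 29.8 CPM in DMSO libraries 1, 2 and 3. KRT5, a keratin of basal epithelium, was at 0.0778 CPM in WD6305 library 1 and 0.131 CPM in DMSO library 3 but at 63.4 to 79.3 CPM in the other 4, KRT14 was listed at 0 in WD6305 library 1, and COL1A1, a collagen, had 33.5 CPM in WD6305 library 1 and 1.30 to 2.60 CPM in the other 5. KRT8 and KRT18, the 2 genes of this list that were called, fell by 0.83 and 0.81. WD6305 library 1 and DMSO library 3 therefore differ from the others in their groups. KRT5 and KRT14 are markers of another cell type than this monocytic line, and it is the other 4 libraries that hold them. The source of this RNA was not tested. Without WD6305 library 1 and DMSO library 3, 15 import genes again fell, 14 of them in common with the fit on all libraries. LONP1 lost its call and SAMM50 gained one. That fit keeps the 4 libraries with keratin RNA, so it cannot show whether the calls depend on it.

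Promoters of TRAP1, TIMM44, TOMM40 and HSPE1, 4 genes that fell, are printed first, 1 each for the mitochondrial Hsp90, the motor tether, the outer channel and the chaperonin lid, because their motifs are set beside the expression values further on. TIMM50, which fell more than TOMM40 and HSPE1, has a window with the same GC box and is not printed. They are the 300 bases from 250 before to 50 after a start site in RefSeq (GRCh38.p14), read 5′ to 3′ on the gene's strand. These starts can differ from those of the deposited loci: the TOMM40 window lies wholly downstream of the deposited start at 44890569. HSPE1 lies head to head with HSPD1. The HSPE1 window chr2:197500129-197500428 (plus strand) holds the deposited starts of both, 197500140 for HSPE1 and 197500274 for HSPD1. Capitals mark the E-box CACGTG, the site read by MYC and related factors.
HSPE1: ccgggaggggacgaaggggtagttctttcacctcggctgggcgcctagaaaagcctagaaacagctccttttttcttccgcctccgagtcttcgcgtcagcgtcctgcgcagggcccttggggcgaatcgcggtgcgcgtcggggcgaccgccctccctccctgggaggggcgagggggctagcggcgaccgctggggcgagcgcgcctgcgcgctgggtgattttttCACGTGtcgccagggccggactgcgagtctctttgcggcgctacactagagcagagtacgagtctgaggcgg
For TRAP1 (chr16:3717475-3717774, minus strand), TIMM44 (chr19:7943617-7943916, minus strand) and TOMM40 (chr19:44891004-44891303, plus strand), capitals mark the GC box GGGCGG on either strand, the site read by SP1-type factors.
TRAP1: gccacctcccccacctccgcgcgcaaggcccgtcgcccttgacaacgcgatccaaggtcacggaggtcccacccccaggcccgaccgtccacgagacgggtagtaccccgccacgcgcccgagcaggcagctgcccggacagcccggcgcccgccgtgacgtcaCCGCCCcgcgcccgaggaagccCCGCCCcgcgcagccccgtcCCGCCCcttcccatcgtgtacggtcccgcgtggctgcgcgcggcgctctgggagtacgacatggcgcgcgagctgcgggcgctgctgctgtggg
TIMM44: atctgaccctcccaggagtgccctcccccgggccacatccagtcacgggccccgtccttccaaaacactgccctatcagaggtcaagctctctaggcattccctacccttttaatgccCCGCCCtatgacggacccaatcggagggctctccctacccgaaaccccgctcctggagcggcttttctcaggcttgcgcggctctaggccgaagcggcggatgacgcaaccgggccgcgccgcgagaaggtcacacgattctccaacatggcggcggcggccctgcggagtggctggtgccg
TOMM40: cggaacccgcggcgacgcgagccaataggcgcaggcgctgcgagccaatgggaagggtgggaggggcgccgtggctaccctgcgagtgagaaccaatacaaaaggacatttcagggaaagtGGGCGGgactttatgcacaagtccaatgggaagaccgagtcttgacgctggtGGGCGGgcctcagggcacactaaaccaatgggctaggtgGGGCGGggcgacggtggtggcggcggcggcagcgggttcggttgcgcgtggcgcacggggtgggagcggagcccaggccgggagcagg
The printed windows were picked after the values were seen and are no test of a motif. TIMM23 (chr10:45972239-45972538, plus strand), whose RNA did not pass the test, has a window without a GC box. HSPA9, SAMM50, TIMM10, TIMM17A, TIMM29, TIMM8A and TIMM9 did not pass either, and their windows hold one. In the TIMM23 window capitals mark the ETS core CCGGAAG on either strand.
TIMM23: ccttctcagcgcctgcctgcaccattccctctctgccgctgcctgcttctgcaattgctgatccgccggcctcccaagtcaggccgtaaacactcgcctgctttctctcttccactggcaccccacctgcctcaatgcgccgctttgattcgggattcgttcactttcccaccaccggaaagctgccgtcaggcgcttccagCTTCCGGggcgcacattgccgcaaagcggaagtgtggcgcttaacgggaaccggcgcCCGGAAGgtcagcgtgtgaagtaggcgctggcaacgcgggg

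Under WD6305, 15 of the 36 members that passed the filter on low counts fell and 0 rose (edgeR quasi-likelihood test, Benjamini-Hochberg adjusted p under 0.05 over 18138 genes). In the background of all tested genes, 11.2% fell and 12.2% rose, or 23.4% in either direction. At an unadjusted p under 0.05, 22 members were lower and 0 higher in edgeR, and DESeq2 called 21 lower and 0 higher at its adjusted p. The median log2 fold change was -0.21 over the 36 members and 0.00 over all tested genes, and 30 of the 36 had an estimate below 0. Without the readthrough TIMM23B-AGAP6, 15 of 35 fell, the median was -0.20 and 29 had an estimate below 0. The 3 WD6305 libraries lay wholly below the 3 DMSO libraries for 22 of the 36, against 20.3% of all tested genes in that direction and 40.8% in either. Members' counts together made up 0.346% to 0.358% of all counts under WD6305 and 0.416% to 0.432% with DMSO. In such bulk libraries, fewer cells expressing a gene and less of its RNA in each cell cannot be told apart.

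**Figure D1:**
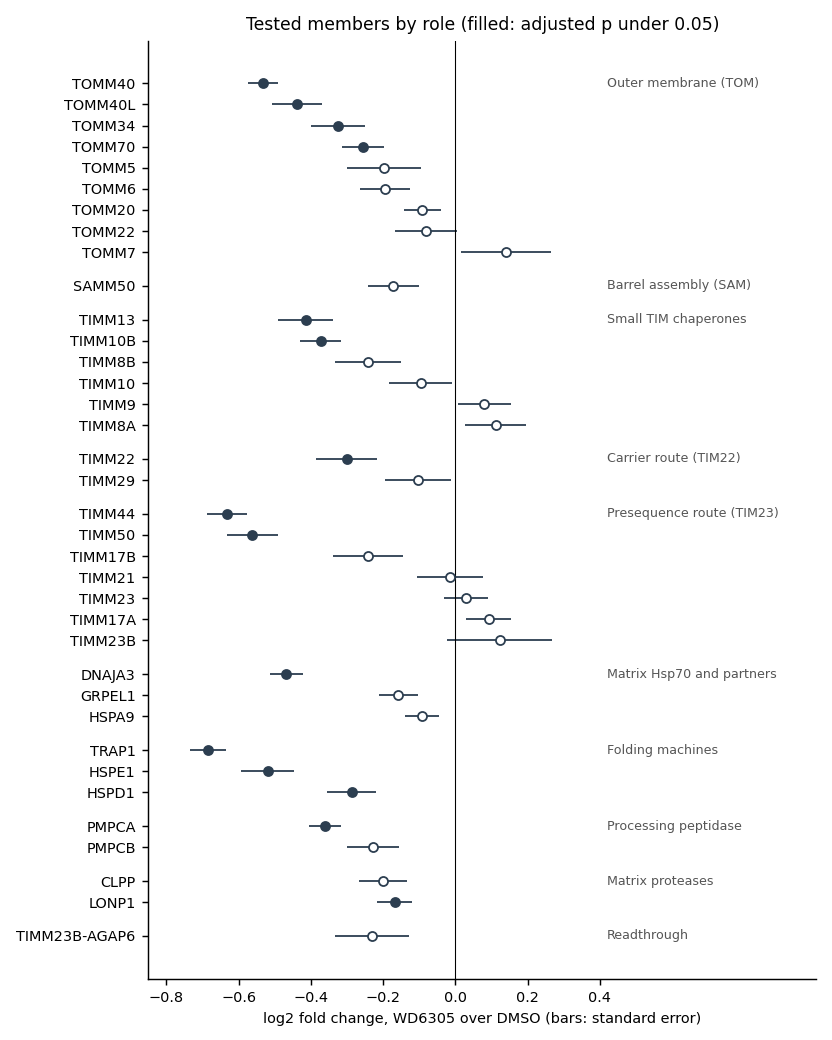
Log2 fold change (WD6305 over DMSO) of each of the 36 tested members by role, with the standard error as a bar and filled points for an adjusted p under 0.05. The 15 filled points all lie below 0, from TRAP1 at -0.68 to LONP1 at -0.17, and at least 1 stands in each role except barrel assembly and the readthrough transcript.

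The members differed in level in the DMSO libraries, taken at the same 48 h. Per length, the highest with DMSO was TOMM6, a small subunit of the TOM complex, at 210 ± 15.9 FPKM (fragments scaled to transcript length and library size, SD, n = 3), a value that depends on the length assigned to a very short message. HSPD1 followed at 98.1 ± 6.89 FPKM. LONP1, TIMM23 and TIMM13 had 69.0 ± 2.08, 68.3 ± 4.51 and 64.4 ± 5.94 FPKM, with overlapping ranges of mean ± SD. TIMM22 and TIMM23B were low at 6.77 ± 0.149 and 2.13 ± 0.21 FPKM. The coefficient of variation of a member's CPM within a group had a median of 5.31% under WD6305 and 5.77% with DMSO over the 35 tested members other than the readthrough. The genes that fell spanned this range of levels: TIMM50 and TRAP1, with log2 fold changes of -0.56 and -0.68, had 10.1 and 40.9 FPKM with DMSO.

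**Figure D2:**
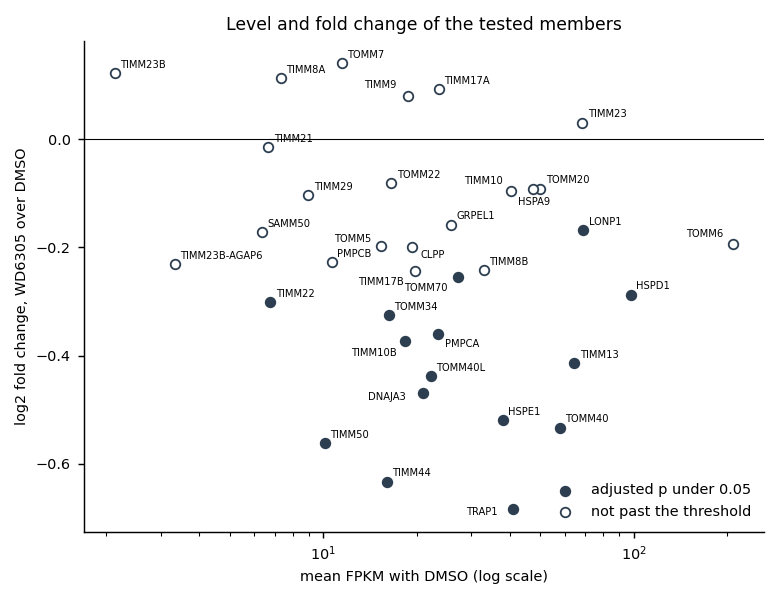
Log2 fold change (WD6305 over DMSO) against the mean FPKM with DMSO on a log axis, 1 point per tested member, filled for an adjusted p under 0.05. The filled points run from TIMM22 at 6.77 FPKM to HSPD1 at 98.1 FPKM, and TOMM6 at 210 FPKM is open.

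Of the 9 tested genes of the outer membrane's TOM complex and its helpers, 4 fell. TOMM40 encodes the barrel through which nearly all precursors pass and lies on chromosome 19 from 44890569 to 44903689 (GRCh38, plus strand). It had 154, 150 and 152 CPM in WD6305 libraries 1, 2 and 3 and 214, 225 and 221 CPM in DMSO libraries 1, 2 and 3. The groups were far apart relative to the spread inside each, with a log2 fold change of -0.53 (SE 0.04, adjusted p = 9.38e-05, edgeR). Its paralogue TOMM40L had 54.3, 60.9 and 55.0 CPM under WD6305 and 80.8, 77.8 and 72.1 CPM with DMSO, again without overlap (log2 fold change -0.44, SE 0.07, edgeR adjusted p = 0.00225).

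Of the receptor and cochaperone genes, TOMM70 and TOMM34 fell. TOMM70, the receptor that takes carrier precursors from cytosolic chaperones, had 127, 120 and 118 CPM under WD6305 and 143, 136 and 155 CPM with DMSO, which did not overlap, and fell by 0.25 on the log2 scale (SE 0.06, edgeR adjusted p = 0.0134). TOMM34, a cytosolic cochaperone of Hsp70 and Hsp90, had 27.9, 24.8 and 28.1 CPM under WD6305 and 34.1, 32.9 and 34.1 CPM with DMSO and fell by 0.32 (SE 0.08, edgeR adjusted p = 0.0142). Both calls depended on single libraries: TOMM70 had adjusted p = 0.0557 without WD6305 library 2 and 0.0704 without WD6305 library 3, and TOMM34 had 0.0518 without WD6305 library 2 (edgeR). TOMM34 lies across PABPC1L on the opposite strand, and counting is not stated to have used strand, so their reads may be mixed.

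TOMM20 and TOMM22, the receptors of presequence proteins, did not pass, with log2 fold changes of -0.09 (SE 0.05) and -0.08 (SE 0.09). TOMM20 had 169, 170 and 171 CPM under WD6305 and 193, 172 and 177 CPM with DMSO, so the libraries of the groups did not overlap but lay close. The small subunits TOMM5, TOMM6 and TOMM7, which stabilise the complex, did not pass, at -0.20, -0.19 and 0.14 on the log2 scale. TOMM7 was the member of the complex with an estimate above 0, with 20.7, 23.7 and 24.9 CPM under WD6305 against 24.8, 18.2 and 19.8 CPM with DMSO, and its groups overlapped. TOMM6 passed under 4 of the 15 alternatives, DESeq2 among them (adjusted p = 0.0261), and all 2237 bases of its locus lie under another same-strand row of the table, so reads may be shared. SAMM50, the core of the barrel assembly complex, had a log2 fold change of -0.17 (SE 0.07) and did not pass. TOMM20L, a paralogue of TOMM20, was listed at counts of 6, 5 and 19 under WD6305 and at 0 in all 3 DMSO libraries, and these few counts did not pass the filter.

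Among the small TIM chaperones, which shield hydrophobic precursors across the intermembrane space, 2 of 6 fell. TIMM13, which works with TIMM8A, had 80.2, 88.5 and 84.99 CPM under WD6305 and 126, 104 and 108 CPM with DMSO (log2 fold change -0.41, SE 0.08, edgeR adjusted p = 0.00464). TIMM10B, which docks the chaperones on the TIM22 complex, had 43.8, 44.8 and 45.2 CPM under WD6305 and 58.7, 58.4 and 56.2 CPM with DMSO (log2 fold change -0.37, SE 0.06, edgeR adjusted p = 0.00202). Neither gene's groups overlapped. TIMM8B, a paralogue of TIMM8A, and TIMM10, which carries carrier precursors, had log2 fold changes of -0.24 (SE 0.09) and -0.10 (SE 0.09) and did not pass in edgeR, while TIMM8B passed in DESeq2 (adjusted p = 0.0345). TIMM8A, the gene of deafness-dystonia syndrome, had 26.8, 26.0 and 23.9 CPM under WD6305 and 24.6, 21.7 and 24.7 CPM with DMSO, and TIMM9, the partner of TIMM10 in its hexamer, had 31.0, 27.9 and 29.9 CPM under WD6305 and 28.9, 26.8 and 28.2 CPM with DMSO. The groups overlapped for both, with log2 fold changes of 0.11 and 0.08.

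TIMM22, the channel for carrier proteins in the inner membrane, had 19.6, 18.9 and 16.6 CPM under WD6305 and 23.5, 22.4 and 22.1 CPM with DMSO and fell by 0.30 (SE 0.08, edgeR adjusted p = 0.0320). This call was lost at adjusted p = 0.0631 with no filter on low counts and at 0.0719 to 0.124 without DMSO library 1 or 2 or WD6305 library 2 or 3 (edgeR). Its locus overlaps that of ABR on the opposite strand by 153 bases. TIMM29, another subunit of that complex, had a log2 fold change of -0.10 (SE 0.09) and did not pass.

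In the presequence route the genes of the receptor and of the motor tether fell, and those of the channel core did not pass. TIMM44, which anchors the Hsp70 motor to the channel, had 50.9, 50.5 and 49.8 CPM under WD6305 and 81.5, 75.3 and 77.6 CPM with DMSO. It lies on chromosome 19 from 7926718 to 7943667 (minus strand), and its log2 fold change was -0.63 (SE 0.06, edgeR adjusted p = 0.000152). TIMM50, the receptor facing the intermembrane space, had 53.7, 49.8 and 52.2 CPM under WD6305 and 82.2, 77.1 and 70.5 CPM with DMSO (log2 fold change -0.56, SE 0.07, edgeR adjusted p = 0.000730). The WD6305 libraries of both genes lay wholly below the DMSO libraries.

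TIMM23, the channel-forming subunit, had 85.6, 87.3 and 89.1 CPM under WD6305 and 92.9, 81.4 and 82.1 CPM with DMSO. TIMM17A, its stress-regulated partner, had 92.3, 94.7 and 91.1 CPM under WD6305 and 91.9, 79.1 and 89.9 CPM with DMSO. The groups overlapped for both, and the log2 fold changes were 0.03 (SE 0.06) and 0.09 (SE 0.06). TIMM17B, the other form of that partner, had -0.24 (SE 0.10) and passed in DESeq2 alone (adjusted p = 0.0351), but the whole of its locus lies under PQBP1 on the opposite strand. TIMM21, which links TIM23 to the respiratory chain, had -0.01 (SE 0.09). TIMM23B, a near-identical copy of TIMM23 with which it may share reads, had 6.91, 8.76 and 6.66 CPM under WD6305 and 6.93, 7.55 and 6.05 CPM with DMSO (log2 fold change 0.12, SE 0.15). The groups overlapped, and the readthrough TIMM23B-AGAP6 had -0.23 with no call. TOMM20L-DT had counts of 0, 1 and 0 under WD6305 and 0, 0 and 10 with DMSO and was not tested.

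**Figure D3:**
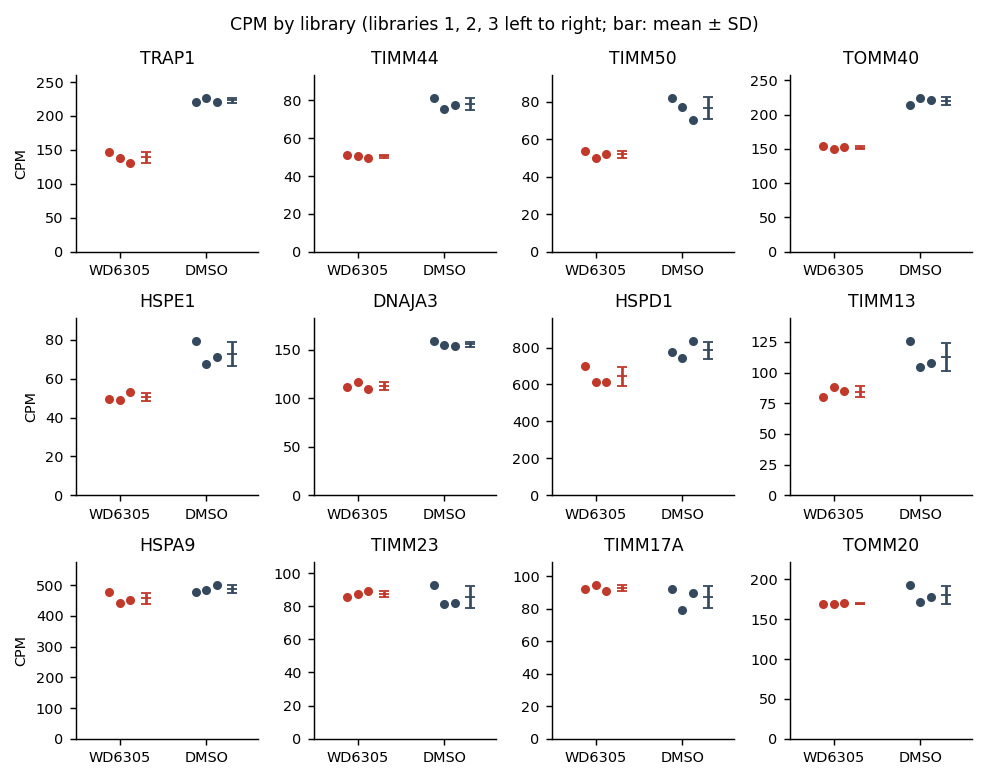
CPM of 12 members in each library (axis from 0, points for libraries 1, 2 and 3, bar for mean ± SD, n = 3 per group). The WD6305 points lie below the DMSO points for TRAP1, TIMM44, TIMM50, TOMM40, HSPE1, DNAJA3, HSPD1 and TIMM13, they overlap for HSPA9, TIMM23 and TIMM17A, and for TOMM20 they lie just below.

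Inside the matrix, the Hsp70 itself did not pass while one of its cochaperones fell. HSPA9 (mortalin), the Hsp70 of the motor, had 477, 441 and 453 CPM under WD6305 and 477, 483 and 501 CPM with DMSO, a log2 fold change of -0.09 (SE 0.05). DNAJA3, a J-domain cochaperone that stimulates it, had 111, 117 and 109 CPM under WD6305 and 159, 154 and 153 CPM with DMSO, with no overlap (log2 fold change -0.47, SE 0.05, edgeR adjusted p = 0.000227). GRPEL1, the nucleotide exchange factor, had a log2 fold change of -0.16 (SE 0.05). GRPEL1 missed the threshold at adjusted p = 0.0649 in edgeR and passed under 6 of the 15 alternatives, DESeq2 among them (0.0386).

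All 3 folding machine genes fell. TRAP1, the Hsp90 of mitochondria, had the largest fold change of the members: it had 147, 139 and 131 CPM under WD6305 and 221, 227 and 221 CPM with DMSO, so it fell by 37.7% (log2 fold change -0.68, SE 0.05, edgeR adjusted p = 8.31e-05). TRAP1 lies on chromosome 16 from 3651639 to 3717553 (minus strand) and overlaps DNASE1 on the opposite strand, which had a log2 fold change of 0.43 (edgeR adjusted p = 0.00533) and a mean count of 1584.5 per library against 12302 for TRAP1. HSPE1, the Hsp10 lid of the chaperonin, had 49.7, 49.0 and 53.2 CPM under WD6305 and 79.4, 67.4 and 70.9 CPM with DMSO (log2 fold change -0.52, SE 0.07, edgeR adjusted p = 0.00140). HSPD1, the Hsp60 barrel that HSPE1 caps, had 702, 616 and 614 CPM under WD6305 and 778, 745 and 835 CPM with DMSO (log2 fold change -0.29, SE 0.07, edgeR adjusted p = 0.0155). The groups overlapped for neither gene, though the call of HSPD1 was lost without WD6305 library 2 (adjusted p = 0.0664) or WD6305 library 3 (0.0795, edgeR). HSPD1 alone supplied 17.4% to 19.5% of the members' counts under WD6305 and 18.0% to 19.7% with DMSO.

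Of the 4 genes that trim or clear precursors, PMPCA and LONP1 fell. PMPCA, the alpha subunit of the peptidase that removes presequences, had 129, 125 and 121 CPM under WD6305 and 165, 157 and 159 CPM with DMSO and fell by 0.36 (SE 0.04, edgeR adjusted p = 0.000741). PMPCB, the catalytic beta subunit, had 62.4, 63.7 and 54.5 CPM under WD6305 and 71.2, 67.2 and 72.9 CPM with DMSO, and missed the threshold at adjusted p = 0.0522 (log2 fold change -0.23, SE 0.07, edgeR). PMPCB passed in DESeq2 (0.0138), and part of its locus is shared with the proteasome gene PSMC2 on the same strand. LONP1, the main matrix protease, had 318, 339 and 317 CPM under WD6305 and 360, 378 and 356 CPM with DMSO. It fell by 11.0% (log2 fold change -0.17, SE 0.05, edgeR adjusted p = 0.0330), and the call was lost under 7 of 15 alternatives, at adjusted p = 0.0607 without DMSO library 1, 0.116 without DMSO library 2, 0.112 without WD6305 library 1, 0.141 without WD6305 library 3, 0.0593 without WD6305 library 1 and DMSO library 3, 0.0641 with no filter, and 0.0527 with the replicate number as a block (edgeR). CLPP, the proteolytic chamber of another matrix protease, had a log2 fold change of -0.20 (SE 0.07) and missed the threshold (adjusted p = 0.0621, edgeR), and passed under 7 of the 15 alternatives, DESeq2 among them (0.0241).

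Partner genes were compared as the log2 ratio of their CPM inside each library, for 7 pairs. In 2 pairs the groups did not overlap. TIMM17A over TIMM17B had log2 ratios of 1.24, 0.93 and 0.90 under WD6305 and 0.67, 0.59 and 0.77 with DMSO, a difference of 0.35. TIMM8A over TIMM8B had -0.24, -0.42 and -0.59 under WD6305 and -0.88, -0.78 and -0.64 with DMSO, also a difference of 0.35. For both, WD6305 library 1 was the highest. Each had an exact permutation p of 0.1 (two-sided), which is the lowest value possible with 3 libraries a group, and 0.35 after adjustment over the 7 pairs. TIMM17B and TIMM8B overlap opposite-strand genes, PQBP1 and NKAPD1, whose log2 fold changes were -0.30 and -0.15. HSPD1 over HSPE1 differed by 0.23 (exact permutation p = 0.2, adjusted 0.35) and PMPCA over PMPCB by -0.13 (exact permutation p = 0.2, adjusted 0.35), both with overlap. The differences of TOMM40 over TOMM40L, GRPEL1 over GRPEL2 and LONP1 over CLPP were -0.09, 0.06 and 0.03, with overlap.

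**Figure D4:**
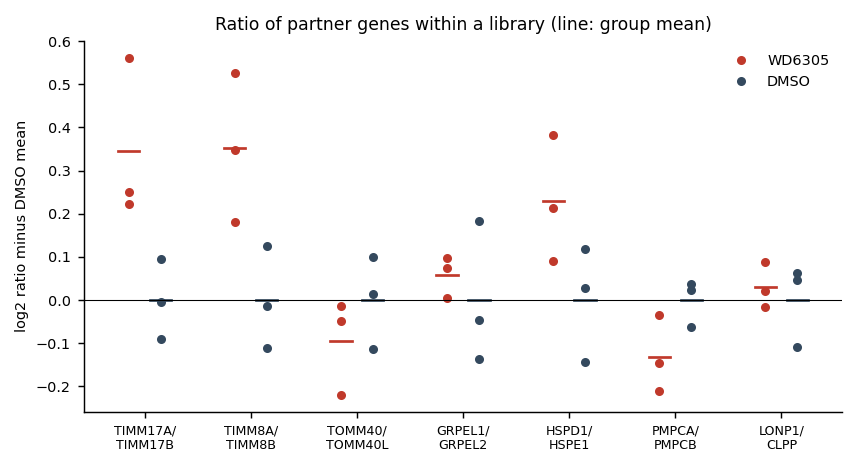
Log2 ratio of partner genes in each library, minus the DMSO mean of that ratio (points for 3 libraries per group, line for the group mean). The WD6305 points lie above the DMSO points for TIMM17A over TIMM17B and TIMM8A over TIMM8B, and overlap with them in the other 5 pairs.

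The tested members lay on 18 chromosomes. Chromosome 19 held 7 of them, of which TOMM40, TIMM44, TIMM50, TIMM13 and LONP1 (5 genes) fell and CLPP and TIMM29 did not pass. Chromosomes 2 and 16 each held 2, of which 2 fell, and chromosome 10 held 3, of which 0 fell. Over all chromosomes 11.2% of tested genes fell. That share was not computed for single chromosomes, so these counts show no concentration on any of them. HSPD1 and HSPE1 overlap by 135 bases at their starts on chromosome 2 in the deposited coordinates, so without strand some of their reads may be shared.

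RefSeq promoter windows were found for 34 of the 38 members, and none for TOMM5, GRPEL1, CLPP and TIMM8B. Of the 7 motifs searched on both strands, the GC box was in the windows of 22 of the 32 tested members with a window, and all 15 genes that fell were among the 22, while 0 of the other 10 fell; this split was noticed after the values were seen and was not tested. Across all tested genes with a window, 14.4% of 8683 with a GC box and 11.5% of 2997 without one fell. Of the tested genes with a window 74.3% hold a GC box, as do 45.0% of all 35116 windows. The E-box was in 7.26% of all windows and in those of 7 tested members, of which HSPD1, HSPE1 and LONP1 fell and HSPA9, TIMM10, TIMM8A and TOMM20 did not pass. Of the 25 tested members without it, 12 fell. This split rests on few members and was not tested. Across all tested genes with a window, 12.3% hold an E-box, and 17.9% of those with it and 13.1% of those without it fell. In the HSPE1 window printed above, it begins 22 bases before the RefSeq start, which is inside the HSPE1 locus by the deposited coordinates.

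The ETS core CCGGAAG, read by GABPA among others, was in 15 tested members, of which 6 fell, while 9 of the 17 without it fell. It was in 21.4% of tested genes with a window and 10.3% of all windows, and 15.1% of the tested genes with it and 13.3% of those without it fell. The NRF1 core GCATGCGC, read by a regulator of mitochondrial genes, was in 5 tested members, of which 3 fell, while 12 of the 27 without it fell. It was in 6.21% of tested genes and 3.05% of all windows, and 14.9% of the tested genes with it and 13.6% of those without it fell. The CCAAT box CCAAT was in 11 tested members, of which 6 fell, while 9 of the 21 without it fell, and the TOMM40 window holds 5 copies. It was in 42.5% of tested genes and 34.6% of all windows, and 14.2% of the tested genes with it and 13.3% of those without it fell. The heat shock element GAANNTTC was found only for HSPD1, and TGATGNAAT, a composite element for ATF4, only for PMPCB, against 6.65% and 0.676% of tested genes with a window and 6.77% and 0.991% of all windows. In the 5 windows printed, 0 of these hits overlapped a hit of another motif.

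Genes around the import machinery were read from the same fit. Of 25 import and assembly partners 8 fell and 0 rose (14 and 0 at an unadjusted p under 0.05 in edgeR, 13 and 0 called by DESeq2), with a median log2 fold change of -0.24. MTCH2, which inserts tail-anchored proteins into the outer membrane, had 91.7 ± 2.33 CPM under WD6305 and 128 ± 2.78 CPM with DMSO (log2 fold change -0.48), and MTCH1, DNAJC11 and CHCHD3 fell by 0.28, 0.37 and 0.32. Further genes were chosen for their roles after the values were seen. The cytosolic chaperones HSPA8 and DNAJA1, which hand precursors to TOM, fell by 0.36 and 0.28. CHCHD4 and GFER, of the pathway that oxidises small TIM proteins as they enter, had 0.06 and -0.30 and did not pass. Of 8 genes of presequence processing, 1 fell and 0 rose (5 and 1 at an unadjusted p under 0.05 in edgeR, 1 and 0 called by DESeq2): UQCRC1, a respiratory subunit related to the processing peptidase, at -0.33.

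Of 15 genes of quality control in the matrix and inner membrane 6 fell and 0 rose (7 and 0 at an unadjusted p under 0.05 in edgeR, 6 and 0 called by DESeq2), with a median of -0.22. STOML2, a scaffold of inner-membrane proteases, had 107 ± 1.12 CPM under WD6305 and 157 ± 7.36 CPM with DMSO, and the prohibitins PHB1 and PHB2 fell by 0.50 and 0.23, as did ERAL1, a chaperone of the mitochondrial ribosome, by 0.31. Citrate cycle enzymes, imported proteins of other function, fell in 10 of 18 and rose in 1, with a median of -0.20: MDH2, IDH3B and SDHB fell by 0.42, 0.39 and 0.28, and OGDH rose by 0.34.

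Messages made inside mitochondria, which need no import, fell in 0 of 13 and rose in 0, with a median of 0.11. At an unadjusted p under 0.05, 0 were lower and 1 higher in edgeR, and DESeq2 called 1 higher, MT-CO1. MT-CO1 had 13240 ± 1276 CPM under WD6305 and 11134 ± 1612 CPM with DMSO (log2 fold change 0.25), and its groups overlapped. MT-ND5 had 0.17 and MT-ND2 had 0.18, while MT-ND1, named after its value was seen, had -0.19. The 13 genes summed to between 45571 and 48585 CPM under WD6305 and to 43277, 47315 and 38144 CPM in DMSO libraries 1, 2 and 3. The positive median thus leans on DMSO library 3.

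Among 12 tested regulators of the mitochondrial stress response, 3 fell and 4 rose. ATF5, a factor tied to the mitochondrial unfolded protein response, had 27.1 ± 0.431 CPM under WD6305 and 40.5 ± 2.54 CPM with DMSO (log2 fold change -0.58), and ATF4 and TRIB3 fell by 0.54 and 0.25. CEBPB, CEBPG, DELE1, which relays mitochondrial stress to the cytosol, and PINK1, a kinase that marks damaged mitochondria, rose by 0.55, 0.30, 0.19 and 0.35. The count of 4 rises became 2 without the filter or with library sizes alone, 1 without DMSO library 3 and WD6305 library 1, and 1 to 3 when single libraries were left out. TRIB3, DELE1 and PINK1 were named after their values were seen. Of 14 tested factors of mitochondrial biogenesis 6 fell and 0 rose (6 and 1 at an unadjusted p under 0.05 in edgeR, 6 and 0 called by DESeq2), with a median of -0.13. TWNK, the helicase of mitochondrial DNA, POLRMT, its RNA polymerase, and TFB2M fell by 0.52, 0.36 and 0.35, and MYC fell by 0.37.

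**Figure D5:**
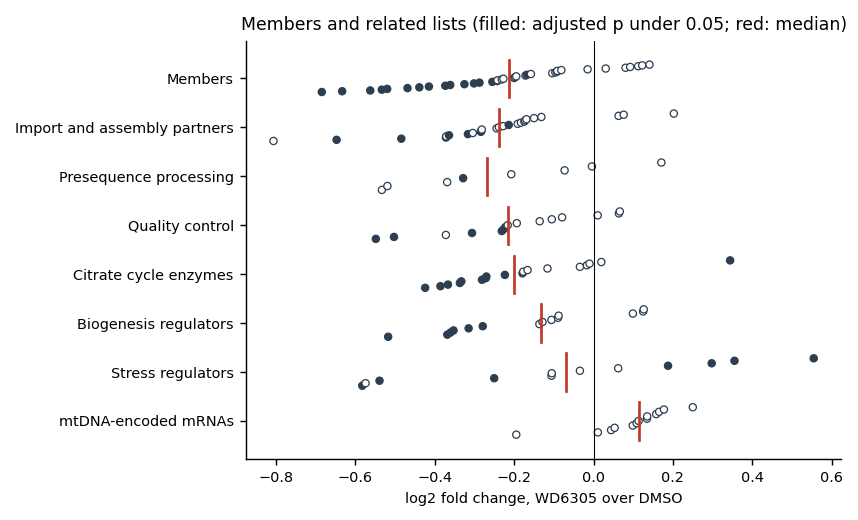
Log2 fold change (WD6305 over DMSO) of each tested gene in the members and 7 related lists, filled for an adjusted p under 0.05, with the median in red. The medians are -0.21 for the members, -0.24, -0.27, -0.22 and -0.20 for partners, presequence processing, quality control and citrate cycle enzymes, -0.13 and -0.07 for biogenesis and stress regulators, and 0.11 for mRNAs encoded in mitochondrial DNA.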

How the data were processed

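Estimated counts and FPKM per gene, deposited by the authors in a single table, cover all 6 libraries. The submitters' processing notes name fastp, HISAT2, StringTie, edgeR and GRCh38. Tool versions were not given in the sources used here, nor which step each tool performed. In the authors' table, estimated counts are whole numbers, and more genes have a count of 4 (1071 to 1176 per library) than of 3 (553 to 636) or 5 (357 to 380), so they may not be single fragments, and the fit was repeated on counts divided by 4. The libraries keep strand by dUTP, and whether counting used it is not given.

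Counts were fitted with edgeR 4.0.16 (R 4.3.3; filterByExpr, TMM, quasi-likelihood test, no block), with p-values adjusted over 18138 of 31853 genes at 0.05. CPM use TMM-scaled library sizes. The alternatives were DESeq2 1.42.0, limma 3.58.1 on log2(FPKM + 1) or log2(FPKM + 0.1), library sizes without TMM, no filter or a mean FPKM of at least 1, the replicate block, and libraries left out. The edgeR, DESeq2 and limma fits were run on simulated counts with known changes as a check of the code. Ratios were tested with scipy 1.17.1. Replicate numbers come from the labels, and further columns of samples numbered 0.

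Members, roles and lists were chosen with earlier results of these data known. The rule for naming was every member, with library values for called members without overlap and those moving against their role, and up to 4 genes per other list by adjusted p. Genes of the mitochondrial lists named beyond it are marked. Of the marker lists, MPO, CD14, CD4, KRT5 and KRT14 were named beyond it.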

Additional observations from a re-analysis of the deposited data

How the results depend on the processing

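Of the 15 lower members, 10 kept their call under all 15 alternatives, and LONP1, TIMM22, HSPD1, TOMM34 and TOMM70 did not. The number of lower members was 21 with DESeq2, 19 with library sizes alone and with a mean FPKM of at least 1, 18 with counts divided by 4, 17 with limma at either pseudocount, 13 with no filter, and 11 to 17 when single libraries were left out. With the replicate block it was 14, LONP1 being lost at edgeR adjusted p = 0.0527. Over all genes the block left 1468 lower and 1736 higher, against 2031 and 2218 without it. Deviations of same-numbered libraries from their group means correlated at -0.214, 0.0528 and -0.122. The highest correlation between the groups was 0.235, for WD6305 library 1 with DMSO library 3, the libraries with KRT5 near 0. Such weak correlations cannot show whether the libraries were paired, and a block for this grouping was not fitted. Higher members numbered 0 except 1 with limma on log2(FPKM + 0.1), TOMM20L, which has 0 counts with DMSO. The limma filter asked for an FPKM of at least 0.1 in 3 libraries. TOMM20L, at 0.13, 0.11 and 0.43 FPKM under WD6305, met it through those libraries alone. The filter thus fixed the direction of this call, which is no evidence of a rise.

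Lower import and assembly partners numbered 13 with DESeq2 and 5 to 9 without single libraries, and lower presequence processing genes 2 with counts divided by 4, library sizes alone or limma on log2(FPKM + 1), and 1 to 2 without single libraries. Higher stress regulators numbered 2 with library sizes alone or no filter, 1 without DMSO 3 and WD6305 1, and 1 to 3 without single libraries. Genes of mitochondrial DNA had 1 higher with DESeq2, 1 lower without DMSO 3 and WD6305 1, and 0 to 1 in each direction without single libraries, and biogenesis factors had 1 higher without DMSO 3 and WD6305 1. The direction changed when single libraries were left out for TIMM21 (-0.0912 to 0.0539), TIMM23 (-0.00496 to 0.0942) and TIMM23B (-0.0127 to 0.198), none of which was called. It also changed for the log2 ratios GRPEL1 over GRPEL2 (-0.00980 to 0.150) and LONP1 over CLPP (-0.0234 to 0.0623). The cause of these changes was not tested. Library sizes alone took the lower share of all calls to 53.9%, against 47.8%. With 3 libraries a group, members near the threshold cannot be settled, and TOMM20L and TOMM20L-DT were too low to pass filterByExpr.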
